A study of Rattus norvegicus with 12 samples.

Results

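In rat kidney cells that lacked ATG5, 25 of the 20842 genes counted by RNA-seq had far fewer reads than in wild-type (WT) cells and in cells that lacked VAMP7. These genes, called here genes lost only in ATG5KO, were chosen by their CPM (the reads of a gene over all reads counted in that library, scaled to a total of 1000000). Each had a mean of at least 1 CPM in WT, which 11442 genes reached. The highest of its 4 ATG5KO values was under 0.25 times the lowest of its 8 WT and VAMP7KO values, and its VAMP7KO mean was 0.5 to 2 times its WT mean. Genes whose symbols begin as those of solute carriers, collagens, laminins, integrins and matrix proteases were left out along with 4 single genes, which removed 1 gene, Slc35d2, that met every other limit. A symbol was known for 22 of the 25 genes, and the other 3 are ENSRNOG00000042224, ENSRNOG00000064037 and ENSRNOG00000062959. The comparisons of ATG5KO with both other genotypes therefore chose these genes, and their values in those comparisons are a description. The question that the comparisons address is how the transcriptome of these cells differs when VAMP7 or ATG5 is missing.

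NRK (Normal Rat Kidney) is an established rat cell line, which the labels call epithelial and the study's text mostly fibroblasts. WT cells, VAMP7KO cells and ATG5KO cells were each grown untreated in complete medium, in 4 replicates of each genotype, which gave 12 libraries. Both knockouts were made with CRISPR/Cas9 and each line was grown from 1 sorted cell, so a difference between lines that predates or accompanies the knockout cannot be told apart from one that follows it. The replicates of a genotype are dishes of 1 line, and p-values measure the spread between them. Each library was made from 600 ng of RNA and held 21090858 to 31525111 counted reads. Vamp7 itself was at 112.3 ± 4.70 CPM (SD, n = 4) in WT, 45.1 ± 5.42 in VAMP7KO and 129.9 ± 1.75 in ATG5KO, and Atg5 was not analysed here because its identifier was not known. Replicates 1 and 2 stood apart from replicates 3 and 4 in every genotype. The labels name no reason, and the study's methods state an adjustment for a batch effect without saying which samples form a batch. Of 15 epithelial markers, 2 could be named: the keratin Krt8 at 782 ± 73.1 CPM in WT and 697 ± 106 in ATG5KO, and the cadherin Cdh16 at 1.21 ± 0.639 and 1.10 ± 0.660 CPM.

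ATG5 is part of the conjugation machinery that attaches LC3-like proteins to lipid during the growth of the autophagosome, the organelle that encloses cytoplasm for delivery to lysosomes. VAMP7 is a SNARE protein of late endosomes and lysosomes that acts in their fusion with other membranes, the plasma membrane among them. Neither protein is a transcription factor. The genes lost in ATG5KO encode proteins of many kinds, among them adhesion and guidance receptors, a secreted matrix protein, cytoskeletal linkers, signalling enzymes, nuclear regulators and enzymes of the secretory pathway.

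The level of every one of the 25 genes was low in all 4 ATG5KO libraries. Their highest ATG5KO value was 1.5 CPM, and the median of their ATG5KO means was 0.0741 CPM, against 3.51 CPM in WT and 2.76 CPM in VAMP7KO. A count of 3 in 1 library equals 0.0952 to 0.142 CPM, and a library with 3 counts or fewer is taken here as being at the floor, which covers counting error only. In 9 of the 25 genes all 4 ATG5KO libraries were at the floor, and in 3 of these (Dusp22, Postn and Prr32) no ATG5KO library had a read. In the other 16 some ATG5KO library was above the floor, with up to 105 reads over the 4 libraries in RGD1560455. Over all 13141 genes tested, 22.7% were called lower in ATG5KO than in WT by the quasi-likelihood test of edgeR (Benjamini-Hochberg adjusted p below 0.05), of 46.3% called in either direction. In the comparison with VAMP7KO 21.3% were called lower, of 44.9% in either direction. All 25 genes were called lower in both comparisons. The way they were chosen fixed this direction and favoured the calls, and both comparisons share the ATG5KO libraries. The median fitted log2 difference between ATG5KO and WT over the 25 genes was -5.43, or -4.37 when the 9 genes at the floor were set to their bound, against 0.01 over all genes tested. Between ATG5KO and VAMP7KO it was -5.57, or -4.37 with the bounds, against 0.01. In these bulk samples, fewer cells with a transcript and less of it per cell cannot be told apart.

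**Figure D1:**
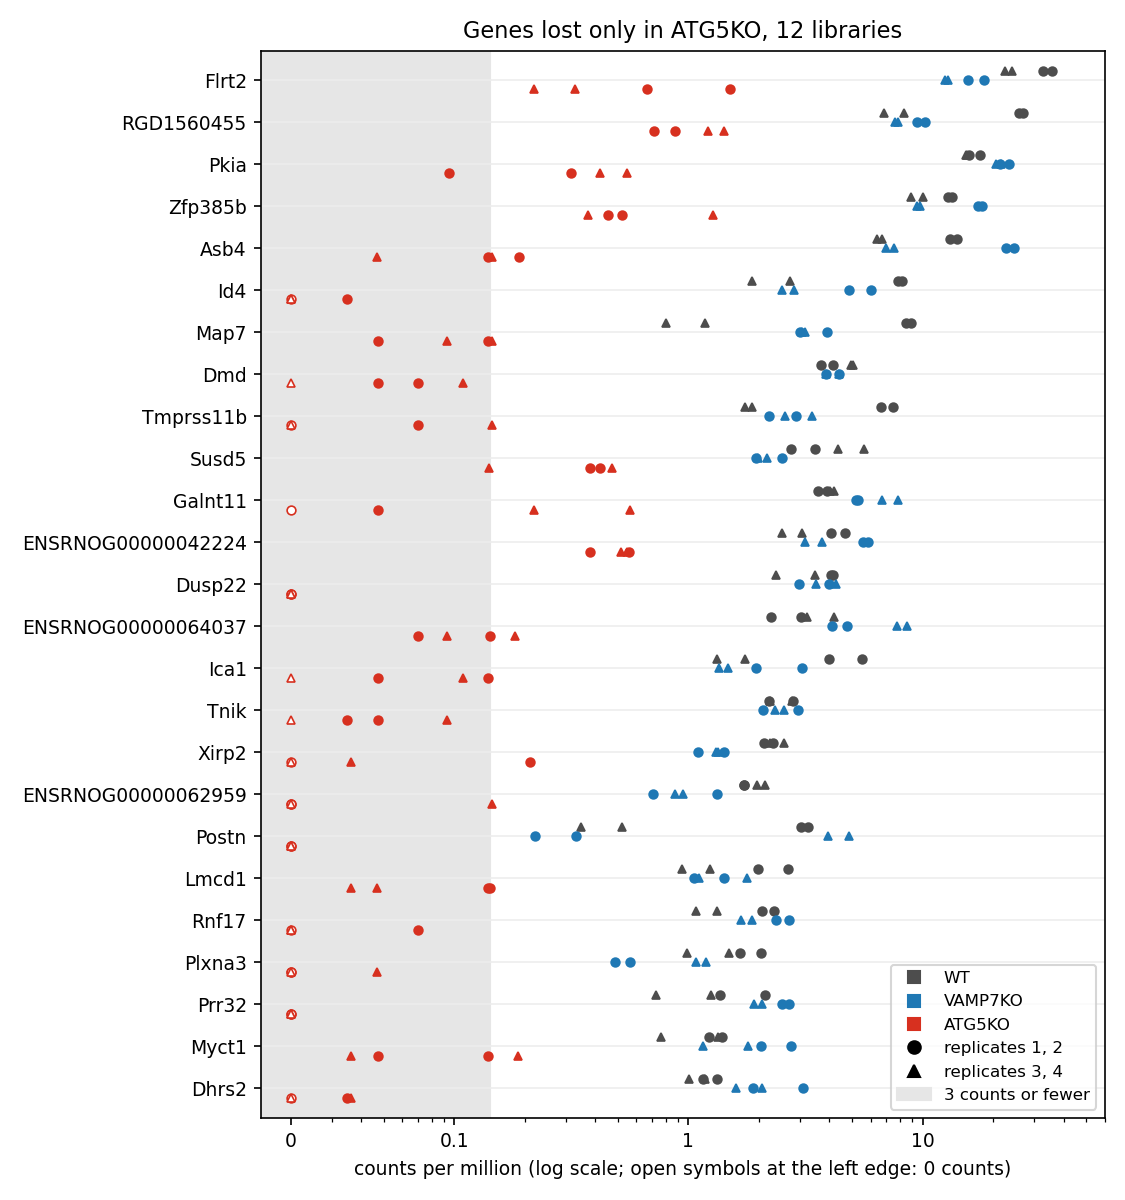
Level of each of the 25 genes in the 12 libraries, in CPM on a log scale. Dark, blue and red symbols are WT, VAMP7KO and ATG5KO, circles are replicates 1 and 2, triangles are replicates 3 and 4, open symbols at the left edge are 0 counts and the grey band marks 3 counts or fewer; every red symbol lies at or below 1.5 CPM and left of all dark and blue symbols of its gene.

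Near the limit, Myct1 (ratio of the highest ATG5KO to the lowest other value 0.245), Susd5 (0.243) and ENSRNOG00000042224 (0.223) were just inside. Just outside it were ENSRNOG00000017879 (0.252), ENSRNOG00000064111 (0.260) and ENSRNOG00000006611 (0.287). Some genes were also near the limits on VAMP7KO. The ratio of the VAMP7KO to the WT mean was 0.510 in ENSRNOG00000062959, 0.516 in Flrt2, 0.519 in RGD1560455 and 1.99 in ENSRNOG00000064037. Flrt2, RGD1560455 and ENSRNOG00000064037 were not chosen without WT replicate 3, WT replicate 4 or VAMP7KO replicate 1. The limit on ATG5KO alone was met by 44 genes, counting those of any VAMP7KO level, of which 15 had a VAMP7KO mean under 0.5 times WT and 4 had one over 2 times WT. By the same limits, 64 genes were lost in both knockouts and 13 were lost only in VAMP7KO.

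**Figure D2:**
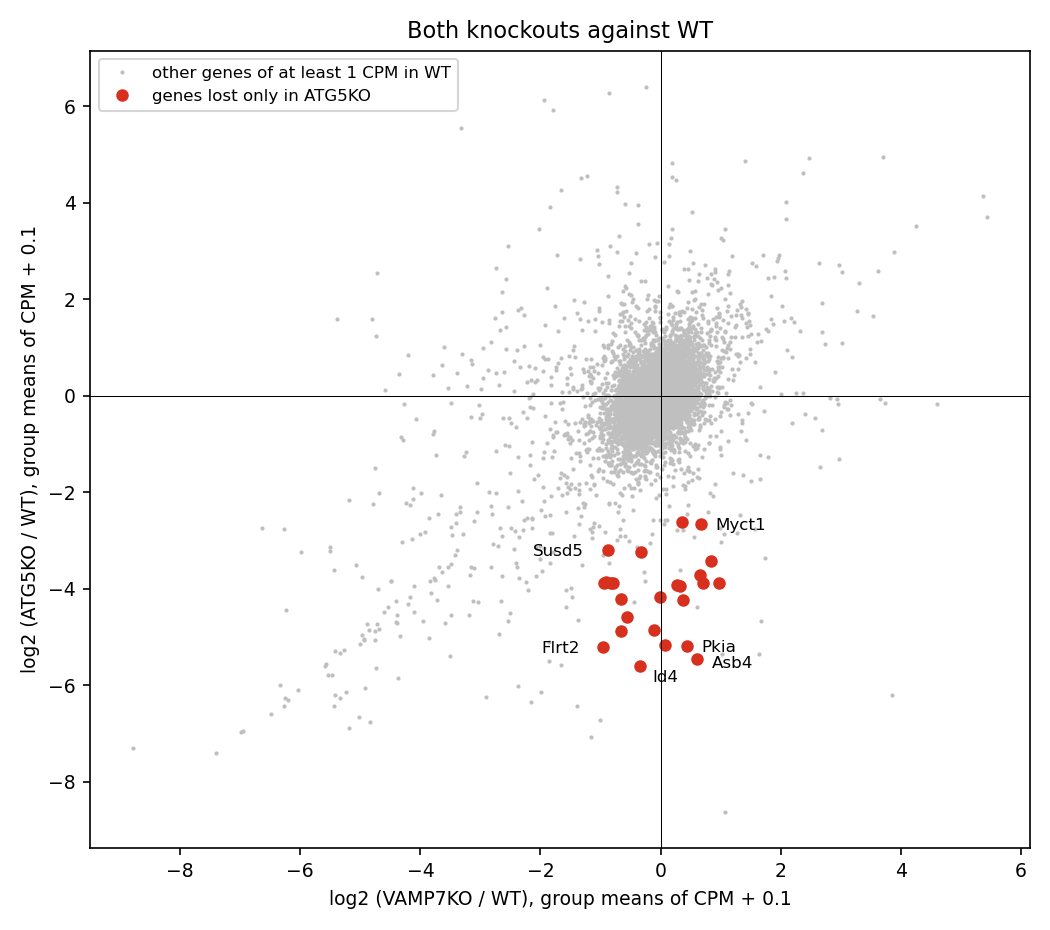
Log2 ratio of the mean CPM in ATG5KO to that in WT (vertical) against the ratio of VAMP7KO to WT (horizontal), with 0.1 CPM added to each mean, for the 11442 genes of at least 1 CPM in WT. The 25 genes (red) lie in a column below 0 on the vertical axis and within 1 log2 unit of 0 on the horizontal axis, as their choice requires, and the grey points at the lower left are genes low in both knockouts.

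The promoters of 20 of the 22 named genes had an entry in RefSeq (GRCr8), a window of 300 bases that ends 50 bases past the start of the transcript. Promoters rich in the dinucleotide CG (CpG islands) are typical of genes that many tissues express, and promoters poor in it of genes with restricted expression. Shown here are the 3 genes with no read in ATG5KO and Flrt2, the gene of the 25 with the most reads in WT, which kept 70 reads in ATG5KO. Their promoters include CpG-rich and CpG-poor sequence, and the part of CpG content in the loss was not tested. The 250 bases before the start are printed 5′ to 3′ on the strand of the gene, with each CG in capitals.
Postn, chr2:140677811-140678060, plus strand: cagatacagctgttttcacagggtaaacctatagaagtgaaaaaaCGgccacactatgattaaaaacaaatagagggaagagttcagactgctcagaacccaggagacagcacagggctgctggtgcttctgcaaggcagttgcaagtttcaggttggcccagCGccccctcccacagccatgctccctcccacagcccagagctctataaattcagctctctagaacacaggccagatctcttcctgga
Prr32, chrX:128855835-128856084, plus strand: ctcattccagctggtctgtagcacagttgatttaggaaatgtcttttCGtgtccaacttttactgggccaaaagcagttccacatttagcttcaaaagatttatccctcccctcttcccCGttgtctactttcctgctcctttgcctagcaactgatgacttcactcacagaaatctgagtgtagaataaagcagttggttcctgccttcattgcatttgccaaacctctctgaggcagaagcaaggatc
Flrt2, chr6:120509073-120509322, plus strand: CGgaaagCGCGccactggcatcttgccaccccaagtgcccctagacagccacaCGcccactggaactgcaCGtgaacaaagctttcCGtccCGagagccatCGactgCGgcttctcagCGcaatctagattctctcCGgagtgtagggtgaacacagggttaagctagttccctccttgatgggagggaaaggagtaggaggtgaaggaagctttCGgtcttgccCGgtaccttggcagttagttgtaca
Dusp22, chr17:34039896-34040145, minus strand: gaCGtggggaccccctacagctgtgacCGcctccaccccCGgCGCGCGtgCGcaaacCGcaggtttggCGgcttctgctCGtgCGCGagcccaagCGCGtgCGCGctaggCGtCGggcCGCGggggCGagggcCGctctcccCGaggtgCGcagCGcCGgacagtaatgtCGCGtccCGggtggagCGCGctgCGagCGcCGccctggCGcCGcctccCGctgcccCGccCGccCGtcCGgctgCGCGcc
The stretches shown hold 2 CG in Postn, 2 in Prr32, 13 in Flrt2 and 43 in Dusp22. Over the full windows, the observed number of CG over that expected from the base composition was 0.150 for Postn, 0.193 for Prr32, 0.661 for Flrt2 and 1.14 for Dusp22. Across the 20 promoters this ratio ran from 0.120 in Dmd to 1.14 in Dusp22, with a median of 0.463. The median was 0.417 over all 27457 promoters of the table and 0.611 over the 817 other named genes of at least 1 CPM in WT. A ratio of 0.6 or more was found in 7 of the 20 (35.0%), namely Plxna3, Flrt2, Susd5, Galnt11, Map7, Id4 and Dusp22, against 36.9% of all promoters and 51.3% of the other named genes. Of 3 motifs searched on both strands, TATAAA was in 4 of the 20 windows (20%), against 14.3% of all promoters and 11.3% of the other named genes. CCAAT was in 5 (25.0%), against 37.7% of either set. GGGCGG was in 8 (40%), above the 34.9% of all promoters and below the 55.4% of the other named genes. These shares are given as a description, without a test. The 817 other named genes come from the authors' lists of changed genes and were not matched to the 25 in level, so they do not stand for all expressed genes.

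**Figure D3:**
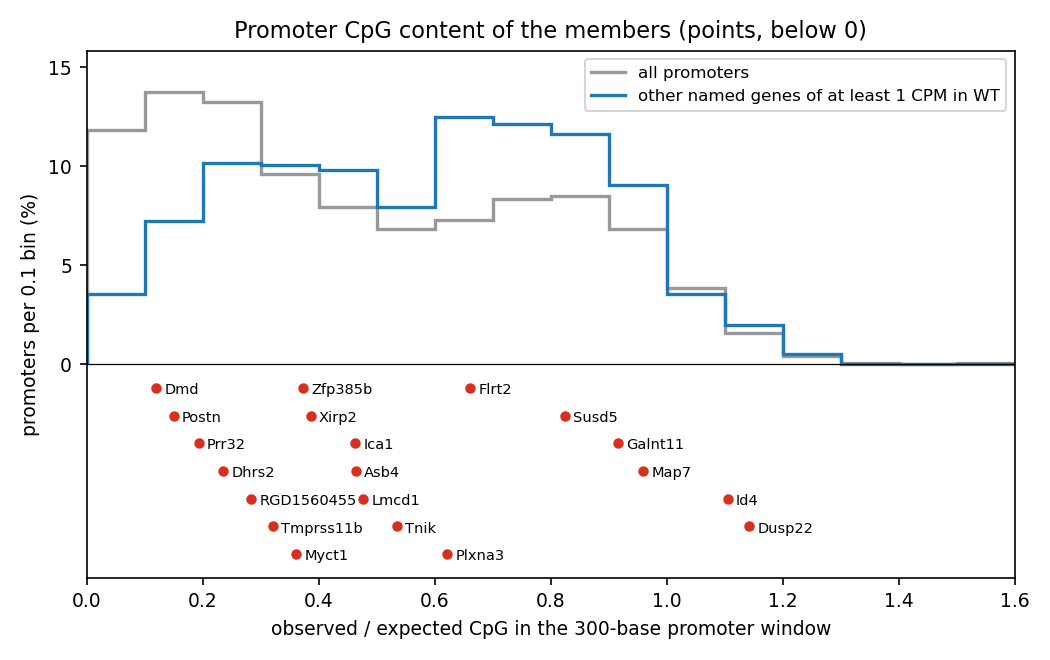
Observed over expected CpG in the 300-base promoter window, as the percentage of promoters in each bin of 0.1, for all 27457 promoters (grey) and for the 817 other named genes of at least 1 CPM in WT (blue). The 20 promoters of genes lost only in ATG5KO are the red points below the axis, whose height has no meaning. They spread from 0.120 to 1.14 and 7 of them are at 0.6 or above. The 817 genes come from the authors' lists of changed genes and were not matched in level.

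Cell surface and matrix proteins made up the first group of genes. Flrt2 encodes a leucine-rich membrane protein that binds latrophilins and UNC5 receptors in cell adhesion and axon guidance. Its levels were 32.6, 35.7, 24.0 and 22.5 CPM in WT replicates 1 to 4, 18.2, 15.6, 12.9 and 12.5 CPM in VAMP7KO and 0.664, 1.5, 0.218 and 0.327 CPM in ATG5KO. The 3 genotypes did not overlap, and the ATG5KO mean was 42.3-fold lower than the WT mean and 21.8-fold lower than the VAMP7KO mean. ATG5KO replicate 2 held 43 of the 70 ATG5KO reads of Flrt2, and without it these ratios were 71.2-fold and 36.7-fold. Susd5, which encodes a protein with a sushi domain, was at 3.48, 2.75, 5.65 and 4.34 CPM in WT, 2.51, 1.94, 2.17 and 1.99 CPM in VAMP7KO and 0.379, 0.419, 0.473 and 0.140 CPM in ATG5KO. It kept more reads in ATG5KO than most of the 25 genes, with a mean 11.5-fold lower than in WT. Plxna3 encodes a plexin, a receptor for semaphorin guidance cues, and had 2.04, 1.66, 0.983 and 1.49 CPM in WT, 0.561, 0.486, 1.19 and 1.07 CPM in VAMP7KO and 1 read in all ATG5KO libraries together. Measured against the floor, it was at least 10.9-fold lower in ATG5KO than in WT.

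Postn encodes periostin, a secreted protein of the extracellular matrix that connective tissue cells make during remodelling. It was at 3.23, 3.04, 0.349 and 0.521 CPM in WT, 0.330, 0.221, 3.96 and 4.86 CPM in VAMP7KO and 0 in the 4 ATG5KO libraries. Both expressing genotypes were split in 2, with WT high in replicates 1 and 2 and VAMP7KO high in replicates 3 and 4. The ATG5KO level was at least 12.5-fold lower than the WT mean, but in WT replicates 3 and 4 the 11 and 15 reads counted leave a smaller margin. So do the 10 and 5 reads in VAMP7KO replicates 1 and 2. The WT and VAMP7KO means were 3.13 and 0.275 CPM in replicates 1 and 2, and 0.435 and 4.41 CPM in replicates 3 and 4. Only their average over all replicates met the limit of 0.5 to 2 times WT, and Postn was not chosen with either pair of replicates alone. The fit gave Postn an SE of 2.79 on the log2 scale, and its call against WT was lost without WT replicate 1 (log2 -7.65), WT replicate 2 (-7.52) or any 1 of ATG5KO replicates 1 to 4 (-8.72, -8.73, -8.62 and -8.55). Among the fibroblast or mesenchymal markers, of which 9 of 15 were named and 8 tested, Postn was the 1 called lower in ATG5KO than in WT and 7 were called higher. Thy1, a surface glycoprotein of fibroblasts, was at 0.349 ± 0.402 CPM in WT and 145 ± 74.4 in ATG5KO, and the collagen Col1a1 at 884 ± 491 and 2112.9 ± 600.0. The summed level of the 9 markers was 505 to 1513 CPM in WT, 1011 to 3090 in VAMP7KO and 2236 to 4072 in ATG5KO.

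Of the 14 FLRT proteins, latrophilins, UNC5 receptors and teneurins listed, 5 could be named. Besides Flrt2, the latrophilin Adgrl1 and the netrin receptor Unc5c were called higher in ATG5KO than in WT, and the teneurins Tenm3 and Tenm4 lower. Adgrl1, which encodes a receptor that binds FLRT proteins, was at 3.92 ± 0.862 CPM in WT and 38.5 ± 2.88 CPM in ATG5KO (log2 difference 3.32 ± 0.165, SE, edgeR's quasi-likelihood test, adjusted p = 5.05e-07). Tenm3 was at 46.5 ± 37.8 and 12.4 ± 3.54 CPM (log2 difference -1.52 ± 0.306, edgeR adjusted p = 0.00267). In VAMP7KO, Unc5c was also called higher than in WT, at 9.95 ± 2.66 CPM. Tenm3 and Tenm4 were also called lower there, at 15.9 ± 7.79 and 0.617 ± 0.346 CPM. Adgrl1 was not called different in VAMP7KO, at 4.44 ± 1.30 CPM. Symbols were known only for genes that the authors had listed as changed in these samples, so the counts of called genes in such lists are not independent evidence of a direction.

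The cytoskeletal genes were Dmd, Map7 and Xirp2. Dmd encodes dystrophin, which links actin to a complex of membrane proteins and through it to the matrix. Its levels were 4.16, 3.69, 5.04 and 4.97 CPM in WT, 3.86, 4.41, 4.42 and 3.86 CPM in VAMP7KO and 0.0474, 0.0699, 0.109 and 0 CPM in ATG5KO. WT and VAMP7KO overlapped, and every ATG5KO library was at the floor, at least 31.4-fold below WT and 29.1-fold below VAMP7KO. Map7 encodes a microtubule-associated protein that recruits kinesin. It was at 8.53, 8.96, 1.17 and 0.799 CPM in WT, 3.89, 3.0, 3.05 and 3.15 CPM in VAMP7KO and 0.0474, 0.140, 0.145 and 0.0934 CPM in ATG5KO. The WT libraries fell into a high pair and a low pair, with VAMP7KO between them and ATG5KO below all. Xirp2, whose product binds actin in striated muscle, was at 2.29, 2.10, 2.22 and 2.57 CPM in WT, 1.42, 1.10, 1.33 and 1.31 CPM in VAMP7KO and 0, 0.210, 0.0364 and 0 CPM in ATG5KO. All VAMP7KO values were below all WT values, and 6 of the 7 reads in ATG5KO were in replicate 2.

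Few other genes of the dystrophin-associated complex could be compared with Dmd. Of the 16 listed, 5 were named, with 2 called higher and 2 lower, Dmd and Dtna, in ATG5KO than in WT. The laminin subunit Lama2 was at 176 ± 71.4 CPM in WT and 119 ± 13.1 in ATG5KO and did not pass the test (edgeR adjusted p = 0.0584). Sgcd, which encodes a sarcoglycan, was at 7.35 ± 2.07 and 10.7 ± 1.13 CPM and was called higher (edgeR adjusted p = 0.00154). In VAMP7KO, Lama2 and Sgcd were both called higher than in WT, at 292 ± 57.0 and 16.9 ± 2.66 CPM. Dtna, which encodes a dystrobrevin, fell from 1.53 ± 0.882 CPM in WT to 0 in all ATG5KO libraries (edgeR adjusted p = 3.20e-04) and was also lower in VAMP7KO, at 0.253 ± 0.154 CPM. Of the 3 named smooth muscle or pericyte markers, 1 was called higher in ATG5KO than in WT, 1 lower and 1 neither. The intermediate filament gene Des was at 2.87 ± 1.59 CPM in WT and 67.7 ± 4.53 in ATG5KO (edgeR adjusted p = 2.03e-06), Abcc9, which encodes a subunit of potassium channels, at 16.6 ± 13.4 and 0.126 ± 0.175 (edgeR adjusted p = 1.98e-07), and the actin gene Acta2 at 9.36 ± 3.39 and 8.86 ± 2.43 (edgeR adjusted p = 0.964). The myogenic factor Myod1, the 1 named of 8 skeletal muscle markers, was at 0.303 ± 0.0647 and 19.1 ± 4.46 CPM. The summed level of the skeletal muscle marker was 0.251 to 0.398 CPM in WT, 0 in every VAMP7KO library and 15.1 to 23.8 CPM in ATG5KO, and that of the 3 named of 10 smooth muscle markers 18.3 to 39.7, 158.5 to 491.9 and 69.0 to 82.7 CPM. The part of these markers in the loss of Dmd and Xirp2 was not tested. Markers of other cell types were sparse among the named genes: 1 of 7 endothelial, 3 of 8 leukocyte and 2 of 8 neural, of which 0, 1 and 2 were called lower and 0, 1 and 0 higher in ATG5KO than in WT.

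Signalling genes formed the third group. Pkia encodes an inhibitor that blocks the catalytic subunit of protein kinase A and carries it out of the nucleus. It was at 17.6, 15.7, 15.5 and 15.3 CPM in WT, 23.5, 21.4, 21.7 and 20.5 CPM in VAMP7KO and 0.0948, 0.314, 0.546 and 0.420 CPM in ATG5KO. These values were steady within each expressing genotype, all VAMP7KO libraries were above all WT libraries, and the ATG5KO mean was 46.6-fold lower than that of WT. Of 17 genes of protein kinase A subunits, inhibitors and anchors, 3 were named. The related inhibitor gene Pkib was at 0.668 ± 0.461 CPM in WT and 0.841 ± 0.267 CPM in ATG5KO (edgeR adjusted p = 0.341) and had no read in VAMP7KO. The regulatory subunit gene Prkar1b was at 0.467 ± 0.215 and 2.51 ± 2.44 CPM (edgeR adjusted p = 0.0462), so Pkia was the 1 gene of the 3 called lower.

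RGD1560455 is listed in RefSeq as an older name of P2ry10b, a receptor gene of the P2Y type. Its levels were 25.8, 26.9, 8.34 and 6.88 CPM in WT, 10.3, 9.49, 7.85 and 7.64 CPM in VAMP7KO and 0.711, 0.873, 1.42 and 1.21 CPM in ATG5KO. It had the most ATG5KO reads of the 25 genes, 105 over 4 libraries, and the VAMP7KO values were close to the low pair of WT libraries. Dusp22 encodes a dual-specificity phosphatase of stress kinase signalling. It was at 4.16, 4.05, 3.46 and 2.36 CPM in WT and 2.97, 3.97, 4.28 and 3.50 CPM in VAMP7KO, with 116, 112, 109 and 68.0 reads in WT and none in ATG5KO. WT and VAMP7KO overlapped, and the ATG5KO level was at least 24.7-fold below the WT mean. Tnik encodes a kinase that binds TRAF2 and NCK and takes part in Wnt signalling. Its levels were 2.80, 2.2, 2.76 and 2.22 CPM in WT, 2.94, 2.07, 2.35 and 2.55 CPM in VAMP7KO and 0.0474, 0.0349, 0 and 0.0934 CPM in ATG5KO, with the expressing genotypes overlapping and a difference to ATG5KO of at least 17.5-fold. Of 23 dual-specificity phosphatase genes, 3 were named. Besides Dusp22, Dusp19 (6.54 ± 1.04 CPM in WT and 10.7 ± 0.931 in ATG5KO) and Dusp13 (2.36 ± 0.659 and 9.69 ± 3.39) were called higher in ATG5KO (edgeR adjusted p = 7.66e-04 and 8.38e-05). Dusp19 was also called higher in VAMP7KO than in WT, at 10.4 ± 1.72 CPM, and Dusp13, at 2.01 ± 0.905 CPM, was not.

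Nuclear regulators were the fourth group. Id4 encodes an inhibitor of DNA binding, a helix-loop-helix protein without a basic region that holds back other factors of its family and answers to BMP signals. It was at 8.18, 7.88, 1.87 and 2.71 CPM in WT, 4.85, 6.0, 2.84 and 2.51 CPM in VAMP7KO and 0, 0.0349, 0 and 0 CPM in ATG5KO. A single read in ATG5KO replicate 2 was all that was left, at least 36.3-fold below WT, and both expressing genotypes were lower in replicates 3 and 4 than in 1 and 2. Zfp385b encodes a zinc finger protein. Its levels were 13.4, 12.8, 10.02 and 8.96 CPM in WT, 17.3, 18.0, 9.50 and 9.71 CPM in VAMP7KO and 0.522, 0.454, 1.27 and 0.374 CPM in ATG5KO, with WT and VAMP7KO overlapping and ATG5KO replicate 3 above the other ATG5KO libraries. Lmcd1, a LIM domain protein that restrains GATA factors, had a mean of 1.70 ± 0.772 CPM in WT, 1.34 ± 0.335 in VAMP7KO and 0.0913 ± 0.0576 in ATG5KO. Myct1, named as a target of MYC, had 1.18 ± 0.286, 1.93 ± 0.654 and 0.103 ± 0.0728 CPM. Of 24 genes of ID proteins and the BMP pathway, 3 were named, and Bmp4, a ligand of the pathway (0.612 ± 0.423 CPM in WT and 2.99 ± 1.12 in ATG5KO, edgeR adjusted p = 1.36e-04), and Smad9, one of its signal transducers, were called higher in ATG5KO. Smad9 had no read in WT and 3.28 ± 0.215 CPM in ATG5KO, at least 30.3-fold higher against the floor (edgeR adjusted p = 9.93e-05).

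The last group held enzymes, adaptors and genes known from other tissues. Asb4 encodes an ankyrin repeat protein with a SOCS box, the part by which such proteins recruit a ubiquitin ligase. It was at 14.0, 13.2, 6.72 and 6.39 CPM in WT, 22.7, 24.5, 7.54 and 7.01 CPM in VAMP7KO and 0.190, 0.140, 0.145 and 0.0467 CPM in ATG5KO. The ATG5KO mean was 77.2-fold below WT and 118-fold below VAMP7KO. Of the 18 ASB genes listed, the 2 others that could be named went the other way: Asb15 was at 1.03 ± 0.518 CPM in WT and 8.43 ± 5.33 in ATG5KO, and Asb5 at 0.181 ± 0.106 and 4.30 ± 0.489 (edgeR adjusted p = 8.10e-05 and 5.60e-06). Both were also called higher in VAMP7KO, where Asb5 had 4.34 ± 0.328 CPM.

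Tmprss11b encodes a serine protease anchored in the plasma membrane. Its levels were 7.46, 6.65, 1.87 and 1.74 CPM in WT, 2.21, 2.87, 3.36 and 2.59 CPM in VAMP7KO and 0, 0.0699, 0.145 and 0 CPM in ATG5KO. The mean was 82.3-fold lower in ATG5KO than in WT, but this rests on 6 ATG5KO reads, 4 of them in replicate 3. Without that library the other 3 were at the floor, at least 31.1-fold below WT. Galnt11 encodes a transferase that starts mucin-type O-glycosylation in the Golgi. It was at 3.59, 3.90, 4.19 and 4.03 CPM in WT, 5.31, 5.21, 7.89 and 6.69 CPM in VAMP7KO and 0.0474, 0, 0.218 and 0.561 CPM in ATG5KO. VAMP7KO was above WT without overlap, and 18 of the 19 ATG5KO reads were in replicates 3 and 4. Galnt12, the other named gene of the 19 in this enzyme family, was at 11.4 ± 2.68 CPM in WT and 8.03 ± 1.45 CPM in ATG5KO (log2 difference -0.50 ± 0.142, edgeR adjusted p = 0.0166). It was also called lower in VAMP7KO than in WT, at 5.71 ± 0.418 CPM. Ica1 encodes a BAR domain protein of Golgi and secretory vesicle membranes. It was at 3.98, 5.49, 1.74 and 1.32 CPM in WT, 1.95, 3.05, 1.47 and 1.35 CPM in VAMP7KO and 0.0474, 0.140, 0.109 and 0 CPM in ATG5KO. The expressing genotypes overlapped, and the mean was 42.3-fold lower in ATG5KO than in WT. This ratio rests on 8 ATG5KO reads, 4 of them in replicate 2. Without that library the remaining ATG5KO libraries were at the floor, at least 22.0-fold below WT.

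Rnf17, a Tudor domain protein known from germ cells, had 1.70 ± 0.594 CPM in WT, 2.16 ± 0.463 in VAMP7KO and 2 reads in ATG5KO, both in replicate 2. Dhrs2, a short-chain dehydrogenase, had 1.17 ± 0.131 and 2.16 ± 0.652 CPM and 2 reads in ATG5KO. Prr32, named for its proline-rich sequence, had 1.37 ± 0.579 and 2.29 ± 0.366 CPM and no read in ATG5KO. All 3 were at the floor in every ATG5KO library, with bounds of at least 11.9, 8.20 and 9.62-fold below WT. Among the genes without a symbol, ENSRNOG00000064037 had 3.17 ± 0.784 CPM in WT, 6.31 ± 2.21 in VAMP7KO and 0.122 ± 0.0501 in ATG5KO. ENSRNOG00000042224 was at 3.57 ± 0.970, 4.58 ± 1.35 and 0.499 ± 0.0823 CPM, the smallest ratio of WT to ATG5KO means, 7.15-fold, among the 16 genes with an ATG5KO library above the floor. ENSRNOG00000062959 was at 1.89 ± 0.192 and 0.962 ± 0.259 CPM, with 4 reads in ATG5KO, all in replicate 3.

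Over the 7 gene lists that hold one of the 25 genes, 24 of 131 genes were named. Of the 17 that are not among the 25, 11 were called higher in ATG5KO than in WT, 4 lower and 2 neither, with a median log2 difference of 1.98, against shares of 23.6% higher and 22.7% lower and a median of 0.01 over all genes tested. In the 8 lists that hold none of the 25 genes, 20 of 147 genes were named and 17 tested, of which 5 were called higher and 9 lower. These were desmosome proteins, calpains, anoctamins, the angiotensin system, Eph receptors and ephrins, phosphoinositide 3-kinases, serpins and the autophagy core, and none of the 38 autophagy genes was named. As all these named genes come from the authors' lists of changed genes, the counts are not read against the background.

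In RefSeq's gene order (GRCr8), the 22 named genes lay on 10 chromosomes, with 4 each on chromosomes 4 and X and 3 on chromosome 2. No pair was adjacent, and the closest, Asb4 and Ica1, were 19 protein-coding genes apart. Within 5 protein-coding genes of 13 of them, 18 other genes were named and 15 tested, of which 7 were called lower and 6 higher in ATG5KO than in WT. Zc2hc1a, next to Pkia, was at 63.3 ± 11.6 CPM in WT and 71.2 ± 6.96 in ATG5KO, and Pld1, next to Tnik, at 45.7 ± 13.2 and 44.5 ± 1.17. Map3k5, next to Map7, was at 0.416 ± 0.0417 CPM in WT and 10.4 ± 1.55 CPM in ATG5KO. Of the 7 called lower, 4 had no read in ATG5KO. Among these, Ppp1r9a, 4 genes from Asb4, was at 7.52 ± 2.24 CPM in WT and 0.912 in VAMP7KO, and Rtl3, 3 genes from RGD1560455, at 2.24 ± 1.45 and 0.158. Frem2, 3 genes from Postn, was at 1.17 ± 0.922 CPM in WT and 0.0503 ± 0.0412 in ATG5KO. Itm2a, 2 genes from RGD1560455, and Dync1i1, 3 genes from Asb4, also had no read in ATG5KO but were too low to be tested. Agtr1a, 2 genes from Dusp22, was not tested either and was at 0.273 CPM in ATG5KO. Other neighbours of Asb4 and Postn were called higher in ATG5KO than in WT. Pdk4, next to Asb4, had a mean of 0.807 CPM in WT and 5.19 CPM in ATG5KO (log2 difference 2.59, edgeR adjusted p = 4.17e-04). Smad9, 5 genes from Postn, had no read in WT and a mean of 3.28 CPM in ATG5KO. Over all genes tested 22.7% were called lower and 23.6% higher. These neighbours could be named only because the authors had listed them as changed, so their counts are not read against those shares. Whether regions were lost was not tested.

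VAMP7KO and WT were held to within 0.5 to 2 times of each other by the choice of genes, and their differences are given as values. The VAMP7KO mean was above the WT mean in 12 of the 25 genes and below it in 13, with a median log2 difference of 0.03, against 0.00 over all genes tested. In 3 genes (Pkia, Galnt11 and Dhrs2) all VAMP7KO values were above all WT values, as in 5.47% of the 11442 genes of at least 1 CPM in WT. In 4 genes (Flrt2, Susd5, Xirp2 and ENSRNOG00000062959) all were below, as in 11.2% of these genes, and in 18 they overlapped. By edgeR with the replicate number as a block, 5 of the 25 genes were called different, beside 22.9% of all genes tested: Asb4, ENSRNOG00000064037 and Dhrs2 higher, and Flrt2 and Susd5 lower in VAMP7KO. Without the replicate block edgeR called 0 of the 25, with 6 at an unadjusted p below 0.05, and DESeq2, run without the block after the data had been seen, called 6. The count was 1 without WT replicate 1, VAMP7KO replicate 1 or VAMP7KO replicate 2, it was 2 without WT replicate 3, and it was 3 without WT replicate 2, WT replicate 4, VAMP7KO replicate 3 or VAMP7KO replicate 4.

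The split between replicates 1 and 2 and replicates 3 and 4 is a contrast that the choice of genes did not compare. It did constrain it, since every WT and VAMP7KO library had to stay above 4 times the highest ATG5KO value. That kept out genes nearly absent from 1 set, except where ATG5KO had almost no reads. Postn, with no read in ATG5KO, had 10 and 5 reads in VAMP7KO replicates 1 and 2, against 113 and 122 in replicates 3 and 4. The split was tested over the 8 WT and VAMP7KO libraries. Of all 12536 genes tested, 63.2% were called different between these sets by edgeR's quasi-likelihood test, and among the 25 genes 11 were. Of the 25, 2 were higher in replicates 3 and 4, beside 30.9% of all genes tested, and 9 were lower, beside 32.4%. These counts are therefore not read against the shares of all genes. Their median log2 difference was -0.38, against -0.01 over all genes tested. Map7 had the largest difference of the called genes (log2 -1.51 ± 0.497, SE, edgeR adjusted p = 0.0232), but this call was lost without WT replicate 2 (log2 -1.32), WT replicate 3 (-1.17) or WT replicate 4 (-1.08). Id4 was lower in replicates 3 and 4 by log2 -1.36 ± 0.187 (edgeR adjusted p = 1.62e-04), and Asb4 by -1.31 ± 0.148 (edgeR adjusted p = 4.32e-05). Ica1 (-1.17), RGD1560455 (-1.03), ENSRNOG00000042224 (-0.63), Rnf17 (-0.62), Zfp385b (-0.61) and Flrt2 (-0.42) were also called lower on the log2 scale. ENSRNOG00000064037 (0.76) and Galnt11 (0.37) were called higher, and the call for Galnt11 was lost without WT replicate 1 (0.35), VAMP7KO replicate 1 (0.35) or VAMP7KO replicate 3 (0.30).

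For some genes the difference between the sets was not the same in WT and VAMP7KO. The p-values of this comparison measure only the spread between the 2 libraries of a set within a genotype. The interaction of genotype and set was called for 17.1% of the 12536 genes and for 7 of the 25, of which 5 had a higher value in VAMP7KO, beside 9.28% of all genes tested, and 2 a lower one, beside 7.83%. The median over the 25 genes was 0.24 on the log2 scale, against 0.00 over all genes tested. The choice of genes constrained the WT and VAMP7KO libraries used here, so these counts and this median are not read against all genes. Postn differed most: from replicates 1 and 2 to replicates 3 and 4 its mean CPM changed by log2 -2.85 in WT and 4.0 in VAMP7KO, and the fitted interaction was 6.69 ± 0.442 (edgeR's quasi-likelihood test, adjusted p = 6.58e-07). In Map7 the change was -3.15 in WT and -0.15 in VAMP7KO (interaction 2.87 ± 0.304, edgeR adjusted p = 3.81e-05). Tmprss11b changed by -1.97 and 0.23 (interaction 2.12 ± 0.302, edgeR adjusted p = 3.53e-04), and RGD1560455 by -1.79 and -0.35 (interaction 1.34 ± 0.176, edgeR adjusted p = 1.99e-04). In these 3 genes the WT libraries carried the split and the VAMP7KO libraries stayed close together.

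Asb4 went the other way, with a larger fall in VAMP7KO (-1.70) than in WT (-1.05; interaction -0.74 ± 0.164, edgeR adjusted p = 0.00763). The calls for Postn, Map7, Tmprss11b, RGD1560455 and Asb4 held in all 12 alternatives run. That for Plxna3 (interaction 1.59 ± 0.471, edgeR adjusted p = 0.0347) held in 4 of the 12, and was lost without WT replicate 1 (1.48), WT replicate 2 (1.72), WT replicate 3 (1.30), VAMP7KO replicate 2 (1.51), VAMP7KO replicate 3 (1.5) or VAMP7KO replicate 4 (1.64). That for Zfp385b (interaction -0.51 ± 0.159, edgeR adjusted p = 0.0440) held in 2 of the 12, and was lost without any 1 of WT replicates 1 to 4 (-0.50, -0.49, -0.44 and -0.61) or VAMP7KO replicates 2 to 4 (-0.47, -0.51 and -0.55). The mean levels of VAMP7KO relative to WT given above for Postn and Map7 are thus averages over sets that differ. Pkia, Dmd, Dusp22 and Tnik passed neither test, with log2 differences between the sets of -0.04, 0.25, -0.10 and 0.04.

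**Figure D4:**
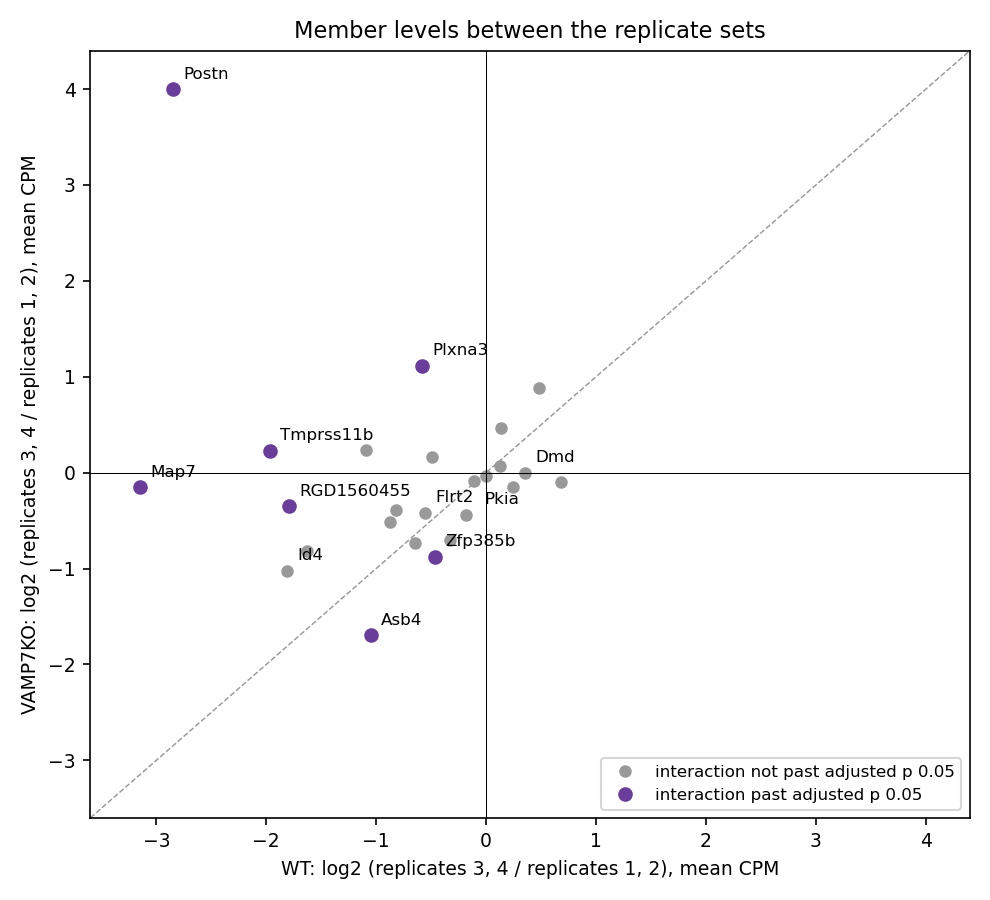
Log2 ratio of the mean CPM of replicates 3 and 4 to that of replicates 1 and 2, in VAMP7KO (vertical) against WT (horizontal), for each of the 25 genes. Purple points are the 7 genes whose interaction passed an adjusted p of 0.05; Postn lies far above the dashed line of equal change, at -2.85 in WT and 4.0 in VAMP7KO, and Asb4 and Zfp385b lie below it.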

How the data were processed

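RNA-seq counts of WT, VAMP7KO and ATG5KO NRK cells were used, 4 replicates each, grouped by their labels. The authors trimmed reads with cutadapt 4.2 (Phred 20, at least 40 bases), removed rRNA with bowtie 2.2.8, aligned the rest with STAR 2.7.10b on mRatBN7.2 and ran htseq-count 0.13.5 with Ensembl release 110. The deposited values are raw counts of 50-base reads, not normalized. A tab missing from the header was restored.

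CPM were computed from column totals. Differences were tested with edgeR 4.0.16 (limma 3.58.1, R 4.3.3; quasi-likelihood test, TMM, filterByExpr, Benjamini-Hochberg adjustment over all genes tested) with genotype and replicate number as a block, and between replicate sets on the 8 WT and VAMP7KO libraries with genotype and set, or their interaction. Deviations from genotype means correlated at r = 0.650 to 0.781 between libraries of equal number, 0.607 to 0.780 within a set and -0.789 to -0.638 between sets, so the number chiefly carries the set. No libraries were duplicates, since counts differed by 3.10 times sampling noise or more (chi-square per degree of freedom). That figure was 3.10 to 25.6 within a set and 126 to 239 between sets of a genotype. The fits were also run on simulated counts with known changes in a small part of the genes. The wide difference between replicate sets seen here was not simulated, so that run does not cover it.

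The 25 genes, the gene lists and the tests were chosen with earlier results of these data known. Every named gene of the 25 is named in the text, with values in all libraries for the 16 named ones of highest mean WT CPM and for called genes of largest and smallest change. Genes without a symbol and single list members were named after their values were seen. Symbols came from the authors' supplementary gene lists (1976 genes), whose fold changes and p-values were not used. The values of 1 list gene are not reported here. Levels were not compared between genes, as gene lengths were not used here. Promoters came from RefSeq (GRCr8). The alternatives were DESeq2 1.42.0 (size factors, Wald test), other filters, limits and blocks, and leaving out each library. Figures were drawn with matplotlib 3.10.9 in Python 3.11.15.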

Additional observations from a re-analysis of the deposited data

Results flagged for a closer look

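In 3 of the 66 groups of 4 libraries examined, 1 library stood apart by Dixon's criterion, which chance gives in about 1 group in 20. Zfp385b in ATG5KO had its highest value in replicate 3 (1.27 CPM), with a gap of 0.836 of the range of the 4 libraries. Map7 in VAMP7KO had its highest value in replicate 1 (3.89 CPM), with a gap of 0.839. ENSRNOG00000062959 in ATG5KO had all of its 4 reads in replicate 3, which makes the gap 1.0 of the range.

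In 7 genes the log2 difference between replicates 3 and 4 and replicates 1 and 2 was not the same in WT and VAMP7KO, by edgeR's test of the interaction. VAMP7KO minus WT was 6.69 for Postn, 2.87 for Map7, 2.12 for Tmprss11b, 1.59 for Plxna3 and 1.34 for RGD1560455. It was -0.74 for Asb4 and -0.51 for Zfp385b.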

How the results depend on the processing

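The number of genes lost only in ATG5KO was 25 and stayed between 17 and 32 under other limits and scalings, and between 23 and 29 with 1 library left out. It was 50 with replicates 1 and 2 only, of which 18 were among the 25, and 48 with replicates 3 and 4 only, of which 19 were among them. The genes that dropped out differed between the 2 sets. Dhrs2, Flrt2, Plxna3, RGD1560455 and Tmprss11b were lost with replicates 1 and 2 only. Prr32, Susd5, ENSRNOG00000062959 and ENSRNOG00000064037 were lost with replicates 3 and 4 only. Map7 and Postn were lost with either set. Without the replicate block, the genes called fell to 3102 (ATG5KO vs WT, 6081 with the block), 2997 (ATG5KO vs VAMP7KO, 5903 with it) and 1024 (VAMP7KO vs WT, 3004 with it), and the genes of the 25 called between VAMP7KO and WT from 5 to 0 by edgeR (6 at an unadjusted p below 0.05). Without the block DESeq2, chosen after seeing the data, called 1745 genes and 6 of the 25 there. The block changed no call of the 25 in the comparisons with ATG5KO, where 24 or 25 were called with 1 library left out, Postn being the 1 lost. With only 2 genotypes in the fit, 9 of the 25 were called between VAMP7KO and WT. With 1 library left out, 1923 to 3224 genes and 1 to 6 of the 25 were called between VAMP7KO and WT, the lowest 2 counts of genes being 1923 without VAMP7KO replicate 1 and 1954 without WT replicate 1. The interaction was then called for 1135 to 3163 genes, with 1135 without VAMP7KO replicate 3, 1160 without WT replicate 3 and 1262 without WT replicate 4. The cause of these shifts was not tested. Of 862 alternative values of the log2 differences between genotypes for the 16 genes given in all libraries, 822 were within 1 SE of the reported value. Of 216 values for called differences by set, 192 kept their call, 24 lost it and none changed sign. Depth limits the 9 genes at the floor to bounds.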
